A study of Homo sapiens with 2 samples.

Results

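Heme is made from glycine and succinyl-CoA by a short chain of enzymes, and 8 of their genes were examined here for binding of LDB1 in NB4 cells. The genes were ALAS1, ALAS2, ALAD, UROS, UROD, CPOX, PPOX and FECH, in the order of the pathway. They are 8 of 20033 protein-coding genes of GENCODE release 44, and the step between ALAD and UROS is not covered. A peak was assigned to a gene when it overlapped, by at least 1 bp, the gene body extended by 10 kb on each side. By this rule the genes held 19 of the 11046 deposited LDB1 peaks (0.172%), and 7 of the 8 genes had at least 1 of them.

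The authors applied CUT&Tag, a method in which DNA near an antibody-bound protein is cut and tagged by a tethered transposase, to the acute promyelocytic leukemia line NB4, which is of human origin. The series held 2 libraries. The library with the LDB1 antibody carried the label LDB1 overexpression, and the library with IgG was labelled untreated, so antibody and treatment differed together and cannot be told apart. Each group was 1 library with no replicate, so no test was possible, and all intervals given are Wilson 95% intervals, or order-statistic intervals for medians, that cover counting error only. The peak list gave the position and length of each region, with no height and no read depth, so the depth behind a peak is unknown, and a gene without a peak is one where no region was called.

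Heme synthesis starts in the mitochondrion, moves to the cytosol and returns to the mitochondrion for its last steps. Most cells start it with ALAS1, while red cell precursors use ALAS2 and make far more heme for hemoglobin. LDB1 does not bind DNA itself. In blood cells it is joined through LMO2 to TAL1 and GATA factors, and the known element of this complex is an E-box remnant close to a GATA site. This element, here called the composite, was searched as CTG followed after 7 or 8 bases by a word of the GATA factors. These words were AGATAA with its variant AGATAG and the word TGATAA with its variant TGATAG. Any of these 4 words alone was counted as a GATA motif, so each composite also holds a GATA motif. All motifs were searched on both strands.

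The 19 peaks held 11 composites in 9 peaks. They are printed in full because they are the copies of the LDB1 element that lay under a peak at the heme enzyme genes. Peaks are numbered from the 5′ end of the gene in its direction of transcription. Coordinates are hg38, each sequence is written 5′ to 3′ on the strand that reads CTG before GATA, and capitals mark CTG and the GATA word.
ALAS2 peak 1 composite 1 (chrX:55028182-55028211, plus strand): gctgagcCTGcagaccacAGATAAagttgc
ALAS2 peak 2 composite 1 (chrX:55015175-55015204, plus strand): gataattCTGctgctttgAGATAGgacttt
UROS peak 3 composite 1 (chr10:125815978-125816007, plus strand): gtggctttCTGgaggggcTGATAGaggctc
UROD peak 2 composite 1 (chr1:45012789-45012818, plus strand): agctggcCTGgaggaggtAGATAGcggtcc
UROD peak 2 composite 2 (chr1:45013026-45013055, plus strand): gtcagggtCTGgaaatctAGATAAaactcc
CPOX peak 1 composite 1 (chr3:98593508-98593537, minus strand): cgcaggcaCTGctccaggTGATAGtgcggg
CPOX peak 3 composite 1 (chr3:98583856-98583885, minus strand): aataaactCTGgggcctaAGATAActccag
CPOX peak 3 composite 2 (chr3:98583983-98584012, minus strand): tgcatgtCTGgtgtcatgAGATAGgcagaa
PPOX peak 2 composite 1 (chr1:161166577-161166606, minus strand): cggcgctCTGctgggtgcAGATAAgggcca
FECH peak 1 composite 1 (chr18:57588465-57588494, plus strand): ggccctcCTGctgggtagAGATAAgggggc
FECH peak 2 composite 1 (chr18:57583449-57583478, plus strand): ttctcatCTGcaaaatagTGATAAggctac

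The word after the spacer was AGATAA in 5 of the 11, AGATAG in 3, TGATAG in 2 and TGATAA in 1. The spacer was 8 bases long in 7 and 7 bases long in 4. Relative to the gene, 5 were read on its coding (sense) strand and 6 on the opposite strand. The 5 were all at UROD and CPOX, and the 6 at ALAS2, UROS, PPOX and FECH. Composites of the same gene thus shared their orientation and are not separate counts of it. In 1 of the 11, the composite of FECH peak 2, the CTG was the end of a complete E-box. Among the 21 pairs of composites with a spacer of 8 bases, the pair most alike was that of PPOX peak 2 and FECH peak 1, the genes of the last 2 enzymes. These shared the GATA word and 6 of the 8 spacer bases, where the median over the pairs was 3. That pair was picked after all pairs had been seen.

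The central 200 bases of 4 peaks show how the motifs sit in them. ALAS2 peak 1 is shown for the erythroid start of the pathway, UROS peak 4 for GATA motifs beside an AP-1 motif (TGANTCA), CPOX peak 1 for GATA motifs at a promoter, and CPOX peak 3 for a pair of composites. Each is written 5′ to 3′ in the direction of transcription, and capitals mark the GATA motif on either strand.
ALAS2 peak 1 centre (chrX:55028029-55028228, minus strand): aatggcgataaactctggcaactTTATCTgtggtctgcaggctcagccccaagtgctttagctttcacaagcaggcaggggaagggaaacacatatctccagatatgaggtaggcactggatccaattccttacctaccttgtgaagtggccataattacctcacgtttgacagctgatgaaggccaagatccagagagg
UROS peak 4 centre (chr10:125799511-125799710, minus strand): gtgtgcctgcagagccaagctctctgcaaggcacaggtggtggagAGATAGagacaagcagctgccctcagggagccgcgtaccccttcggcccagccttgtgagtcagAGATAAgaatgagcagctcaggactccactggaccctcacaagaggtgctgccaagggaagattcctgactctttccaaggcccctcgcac
CPOX peak 1 centre (chr3:98593686-98593885, minus strand): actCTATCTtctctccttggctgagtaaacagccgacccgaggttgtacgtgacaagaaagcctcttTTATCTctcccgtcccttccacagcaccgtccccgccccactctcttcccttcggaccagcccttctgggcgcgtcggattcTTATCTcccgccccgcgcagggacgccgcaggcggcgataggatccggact
CPOX peak 3 centre (chr3:98583826-98584025, minus strand): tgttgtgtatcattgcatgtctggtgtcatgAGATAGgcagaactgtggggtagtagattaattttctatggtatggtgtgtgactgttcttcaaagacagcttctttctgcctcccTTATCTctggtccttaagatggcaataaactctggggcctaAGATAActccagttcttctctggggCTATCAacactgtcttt

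Peaks at the heme enzyme genes were frequent compared with other genes. A peak was found at 7 of 8 (87.5%, interval 52.9 to 97.8%), while 25.1% of all protein-coding genes had one under the same rule. Since long genes catch more peaks, the share was also taken over the 9752 genes whose extended length lay between 24.6 and 62.4 kb, the range of the 8 genes, and it was 23.3%. All 7 had at least 2 peaks (87.5% of the 8), against 9.05% in that length range. Only 1 peak at each of ALAS2, UROD, CPOX and PPOX had the gene's own start as the nearest, and the rest were nearer to a neighbour's. At least 3 peaks were found at 4 of 8 (50%, 21.5 to 78.5%), against 4.18%. Peaks took up 3.54% of the 324566 bp searched at the 8 genes and 0.289% of the windows of all protein-coding genes. The density was 0.585 peaks per 10 kb, against 0.0503. Coverage and density were not matched for gene length, and long genes weigh more in the pooled windows of all genes.

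**Figure D1:**
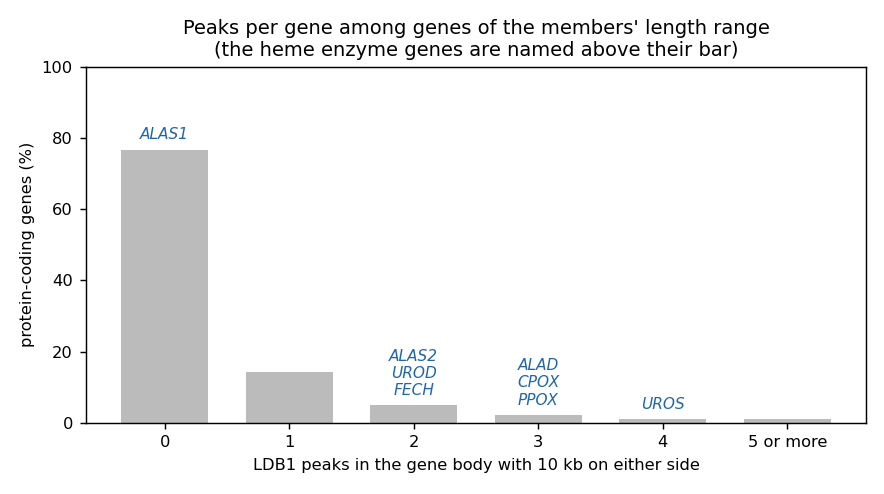
Share of the 9752 protein-coding genes of similar extended length (y axis, %) by number of LDB1 peaks in the gene with 10 kb on either side (x axis), with the heme enzyme genes named above their bar. ALAS1 stood with the 76.7% that had no peak, none of the 8 was among the 14.2% with 1 peak, and the 7 others stood with 2, 3 or 4 peaks, which 4.87%, 2.28% and 0.943% of genes had.

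Both genes of the first step, 5-aminolevulinate synthase, were then compared, and they differed. ALAS1 (ENSG00000023330.15, chr3:52198086-52214327, plus strand) encodes the form used in most tissues and had 0 peaks. The peak closest to it (374 bp) ended 26222 bp upstream of the gene, and the nearest protein-coding start to that peak was that of POC1A at 17254 bp. The ALAS1 window was not without motifs, as it held 44 GATA motifs and 1 composite, all outside peaks.

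ALAS2 (ENSG00000158578.21, chrX:55009055-55030977, minus strand) encodes the erythroid form and had 2 peaks, which covered 5.34% of its window. ALAS2 peak 1 (chrX:55027665-55028594, 930 bp) lay in intron 1 with its midpoint 2848 bp downstream of the canonical transcription start site (TSS). It was longer than 87.5% of all peaks. Its only GATA motif belonged to the composite, which lay at -68 bp from the midpoint, and an E-box (CAGCTG or CAGATG) was found 3 times. ALAS2 peak 2 (chrX:55014663-55015971, 1309 bp) was longer still, above 94.7% of all peaks, and its midpoint lay in intron 8, 15660 bp from the start. It took in 434 coding bp of exons 8 and 9 and held 4 GATA motifs, 1 of them in a composite 127 bp past the midpoint. The start of the neighbouring gene APEX2 was nearer to this peak, at 14954 bp. The ALAS2 window held 2 composites in all, and both lay in a peak. No peak touched the ALAS2 promoter.

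**Figure D2:**
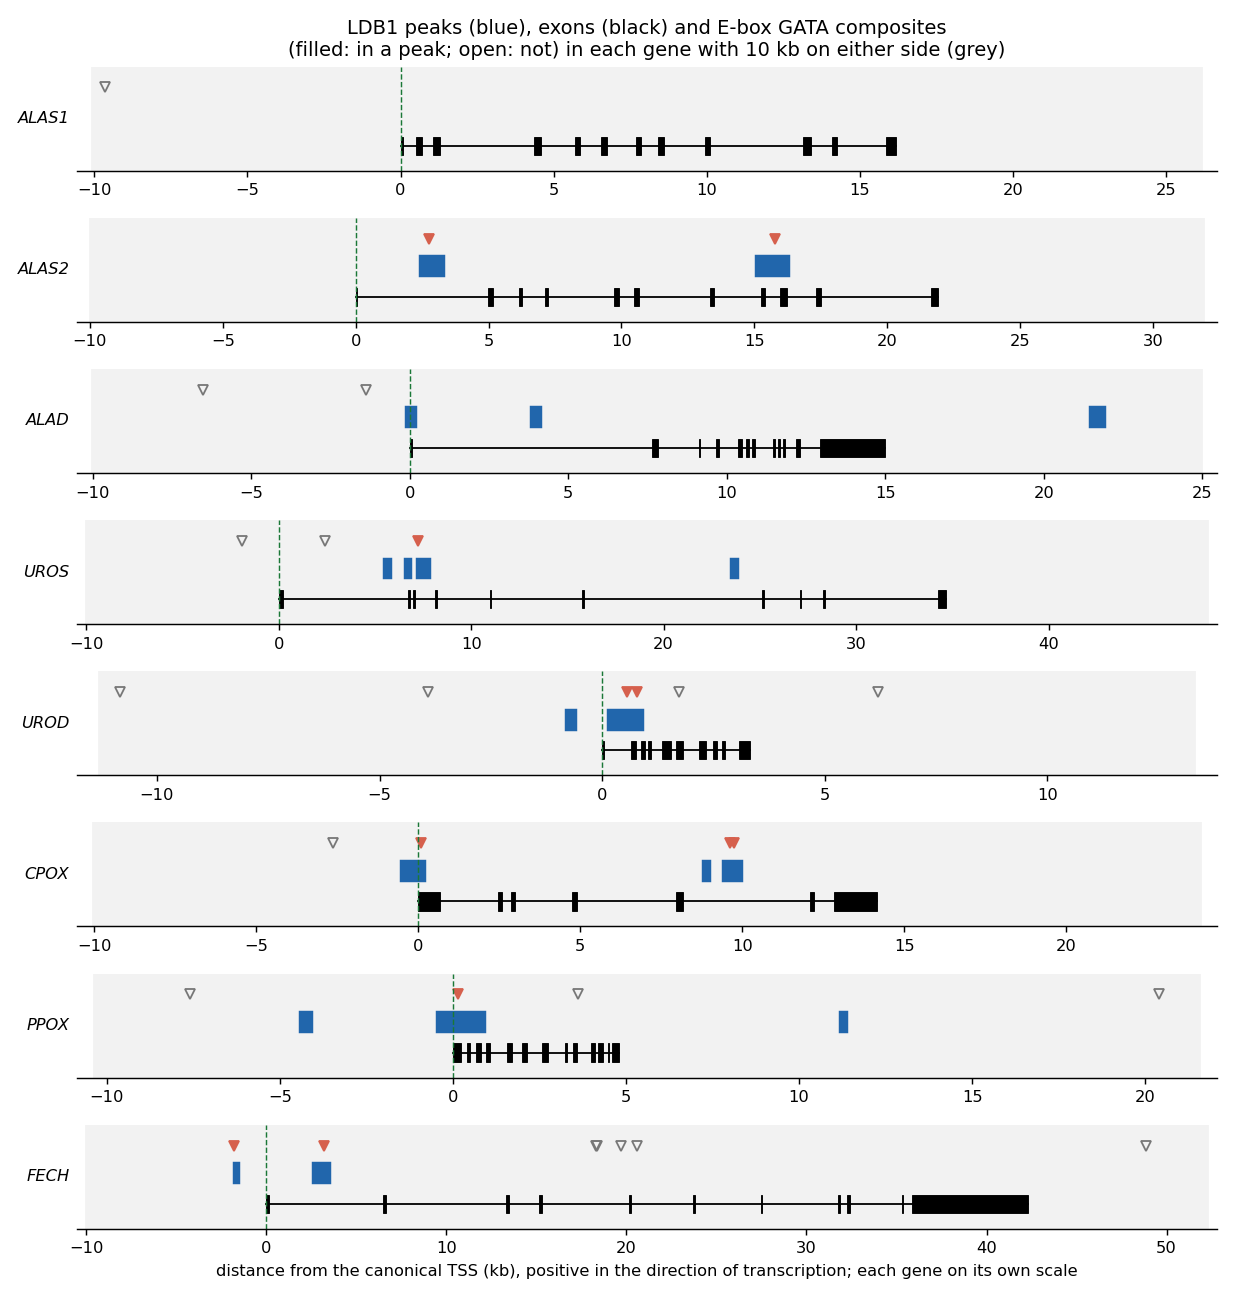
Each heme enzyme gene drawn from its canonical TSS (dashed line) in the direction of transcription (x axis, kb, a separate scale for each gene), with exons in black, LDB1 peaks in blue above them, composites as triangles (filled in a peak, open elsewhere) and the 10 kb flanks within the grey area. ALAS1 has no peak, ALAS2, ALAD, UROS, UROD and FECH have at least 1 in intron 1, ALAD, CPOX and PPOX have one over the dashed line, and 11 of the 29 composites are filled.

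The cytosolic steps follow. ALAD (ENSG00000148218.16, chr9:113386312-113401290, minus strand) joins 2 molecules of aminolevulinate to porphobilinogen, and it had 3 peaks and no composite in any of them. Where a spacer of 9 bases was also allowed, ALAD peaks 1 and 2 each held a composite. ALAD peak 1 (chr9:113401084-113401433, 350 bp) lay over the canonical TSS, with the midpoint 26 bp inside exon 1, and covered 6 annotated ALAD starts in all. It held 1 GATA motif, 98 bp past the TSS, and 5 KLF motifs (CCNCNCCC). ALAD peak 2 (chr9:113397151-113397504, 354 bp) lay in intron 1 at 3957 bp. It covered the start of 1 further transcript, ALAD-204, 75 bp from its midpoint, and held 2 GATA motifs. ALAD has a housekeeping and an erythroid promoter, and whether ALAD-204 belongs to the latter was not tested. ALAD peak 3 (chr9:113379367-113379875, 509 bp) lay 21663 bp from the start, downstream of the gene and 2635 bp from the start of HDHD3. Its central 31 bases occur 317 times in the genome, so that sequence alone does not place it. This was the only 1 of the 19 peaks with a repeated centre, against 10.7% of all peaks.

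UROS (ENSG00000188690.15, chr10:125784980-125823258, minus strand), which closes the porphyrin ring, had the most peaks, 4, and none within 3 kb of its canonical TSS. UROS peaks 1 to 3 stood in a row of 2420 bp with gaps of 638 and 250 bp. Peak 1 (chr10:125817410-125817826, 417 bp) lay in intron 1 at 5640 bp and held 2 GATA motifs and an AP-1 motif. Peak 2 (chr10:125816383-125816771, 389 bp) lay at 6681 bp and reached over 89 bp of exon 2, 63 of them coding. It covered 2 alternative UROS starts, with that of UROS-203 at 55 bp from its midpoint. Peak 3 (chr10:125815407-125816132, 726 bp) was the longest, lay in intron 3 at 7489 bp and held the composite. UROS peak 4 (chr10:125799397-125799825, 429 bp) stood apart in intron 6 at 23647 bp, and held 2 GATA motifs, 2 E-boxes and an AP-1 motif. At all 4 peaks the nearest canonical start of a protein-coding gene was that of UROS, but only by a little. The start of BCCIP lay 5928, 6969 and 7777 bp from peaks 1 to 3, and that of MMP21 lay 23790 bp from peak 4.

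UROD (ENSG00000126088.14, chr1:45010950-45015575, plus strand) trims the side chains of the ring and had 2 peaks, 1 on each side of its canonical TSS with a gap of 710 bp between them. UROD peak 1 (chr1:45011420-45011659, 240 bp) was among the shortest in the list, longer than only 4.05% of all peaks. Its midpoint lay at -715 bp from the canonical TSS, inside the annotated gene, and 215 bp from the start of the neighbour HECTD3. It held 2 GATA motifs. UROD peak 2 (chr1:45012370-45013165, 796 bp) began downstream of the canonical TSS, with its midpoint 513 bp into the gene in intron 1. It took in exon 2 and part of exon 3 (143 coding bp together) and 7 annotated UROD starts. It held 3 GATA motifs and 2 composites, at 37 and 274 bp past its midpoint.

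The last 3 enzymes act in the mitochondrion. CPOX (ENSG00000080819.9, chr3:98579446-98593648, minus strand), which turns coproporphyrinogen into protoporphyrinogen, had 3 peaks. CPOX peak 1 (chr3:98593395-98594177, 783 bp) covered the canonical TSS and 217 bp of exon 1, 110 of them coding, with the midpoint at -175 bp. It held 4 GATA motifs. Of these, 3 lay upstream of the TSS, at -122, -204 and -268 bp, and the fourth lay 94 bp downstream as part of the composite. CPOX peaks 2 and 3 were neighbours in intron 5 with a gap of 347 bp. Peak 2 (chr3:98584591-98584854, 264 bp), at 8889 bp, held no GATA motif. Peak 3 (chr3:98583610-98584243, 634 bp), at 9685 bp, held 4 GATA motifs and 2 composites, at -71 and 56 bp from its midpoint. Both lay inside an overlapping gene, ENSG00000285635, whose start was nearer than that of CPOX, at 776 and 1572 bp.

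PPOX (ENSG00000143224.18, chr1:161166056-161178013, plus strand) oxidises protoporphyrinogen to protoporphyrin. It had 3 peaks, and they took up 6.32% of its window, the highest share of the 8 genes. PPOX peak 2 (chr1:161165946-161167355, 1410 bp) was the longest of the 19 peaks and longer than 95.7% of all peaks. It lay over the canonical TSS and 18 annotated PPOX starts in all, with its midpoint 224 bp downstream in exon 1, and reached into exon 3. It held 3 GATA motifs and a composite 165 bp past the TSS. The other 2 peaks were short and closer to neighbours. PPOX peak 1 (chr1:161161994-161162364, 371 bp) lay at -4247 bp inside USP21, 2679 bp from the start of that gene, and held 2 GATA motifs and 3 ETS motifs (CCGGAAG or CAGGAAG). PPOX peak 3 (chr1:161177567-161177804, 238 bp), the shortest of the 19, lay at 11259 bp, past the end of the canonical transcript but inside B4GALT3, 178 bp from its start. It held no GATA motif.

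FECH (ENSG00000066926.13, chr18:57544377-57586732, minus strand) inserts iron into protoporphyrin to give heme. It had 2 peaks in the widest window of the 8, of which they covered 2.13%, and each held a composite. FECH peak 1 (chr18:57588233-57588544, 312 bp) lay upstream, at -1686 bp, with its composite at -92 bp from the midpoint as its only GATA motif. FECH peak 2 (chr18:57583134-57584151, 1018 bp) lay in intron 1 at 3060 bp, was longer than 89.9% of all peaks, and held 5 GATA motifs. The composite lay 178 bp past the midpoint and no GATA motif lay in the central 200 bp.

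Position within the gene was then summarised. Of the 19 midpoints, 11 lay in an intron of the canonical transcript, 6 of them in intron 1, while 2 lay in an exon, 4 upstream and 2 downstream. A midpoint within 3 kb of the canonical TSS was found at 6 of 8 genes (75%, 40.9 to 92.9%), against 6.19% of all protein-coding genes, and the exceptions were ALAS1 and UROS. Within 1 kb it was found at 4, namely ALAD, UROD, CPOX and PPOX. The canonical TSS itself was covered at ALAD, CPOX and PPOX. The start of at least 1 annotated transcript of the gene was covered at 5 of 8, with UROS and UROD added, against 3.65% of all protein-coding genes. These 5 genes have from 4 (CPOX) to 27 (UROD and PPOX) annotated starts, and the 3.65% was not matched for that number. ALAS2 and FECH had no peak over any of their annotated starts. Of the 19 peaks, 13 touched no canonical exon. For 12 the nearest canonical start of a protein-coding gene was that of the heme enzyme gene, and for the other 7 it was that of a neighbour. The latter were ALAS2 peak 2, ALAD peak 3, UROD peak 1, CPOX peaks 2 and 3, and PPOX peaks 1 and 3, and each of ALAS2, ALAD, UROD, CPOX and PPOX kept at least 1 peak of its own. Of 12 neighbouring pairs of peaks at the same gene, 4 were under 1 kb apart. Apart from the 3 kb window and the start of any transcript, these counts have no share over all peaks or genes beside them. They describe these genes and peaks only.

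Peak length varied widely among the 19, from 238 bp at PPOX to 1410 bp at PPOX. The median was 429 bp (350 to 796 bp), and the median of all peaks was 451 bp, with quartiles of 314 and 666 bp. Thus 7 of the 19 were above the upper quartile, 4 were under the lower quartile, and the median did not stand apart. Length went with the composite. The 9 peaks with a composite had a median of 796 bp and the 10 without 362.5 bp. A longer region has more room for a motif, and in the whole list the medians were 601 bp with a composite and 417 bp without.

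**Figure D3:**
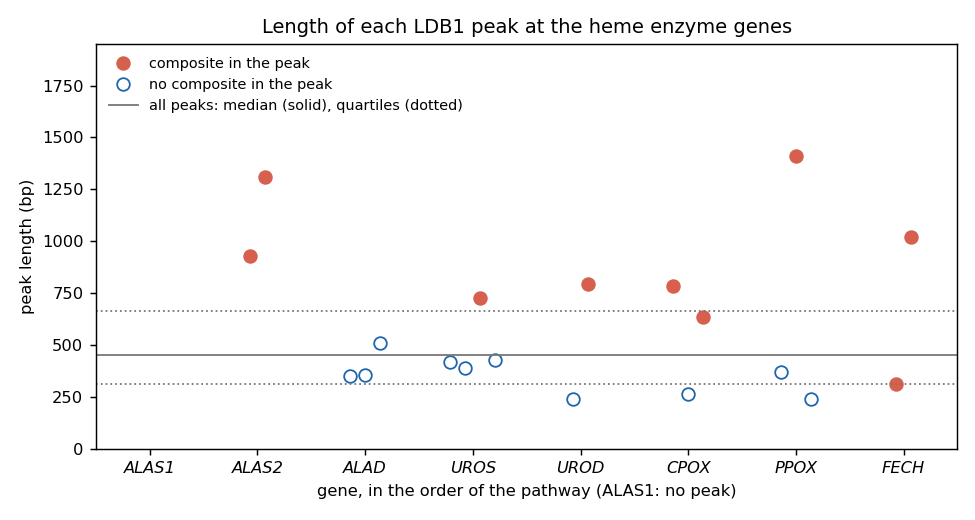
Length of each LDB1 peak (y axis, bp) by heme enzyme gene in the order of the pathway (x axis), filled where the peak holds a composite and open where it does not, with the median of all peaks as a solid line and their quartiles of 314 and 666 bp as dotted lines. Both ALAS2 peaks, PPOX peak 2 and FECH peak 2 are the longest, at 930 to 1410 bp, and of the peaks with a composite FECH peak 1 (312 bp) is the one under the lower quartile.

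To compare motifs at an equal width, the central 200 bp of each peak were searched. The intervals treat the 19 peaks as independent, although they come from 7 genes and some are close neighbours. A value inside or outside an interval is therefore no test. A GATA motif was found in 14 of 19 (73.7%, 51.2 to 88.2%). The share was 47.1% over all peaks, below this interval, and 27.6% over windows 1000 bp to either side of all peaks. The 5 without were UROS peak 2, CPOX peak 2, PPOX peak 3 and both FECH peaks. A composite was found in 4 of 19 (21.1%, 8.51 to 43.3%), against 11.1% of all peaks, inside the interval, and 1.63% of the flanks. These were ALAS2 peak 1, UROD peak 2, CPOX peak 3 and PPOX peak 2. Over the whole peak, 17 of 19 held a GATA motif (89.5%, 68.6 to 97.1%), against 71.4% of all peaks, and the exceptions were CPOX peak 2 and PPOX peak 3. A composite was in 9 of 19 over the whole peak (47.4%, 27.3 to 68.3%), against 22.4%. Per kb of peak there were 3.48 GATA motifs against 2.64 in all peaks, and 0.958 composites against 0.432. The 11 composites lay 37 to 274 bp from the midpoint, with a median of 92 bp, and 6 lay within 100 bp.

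**Figure D4:**
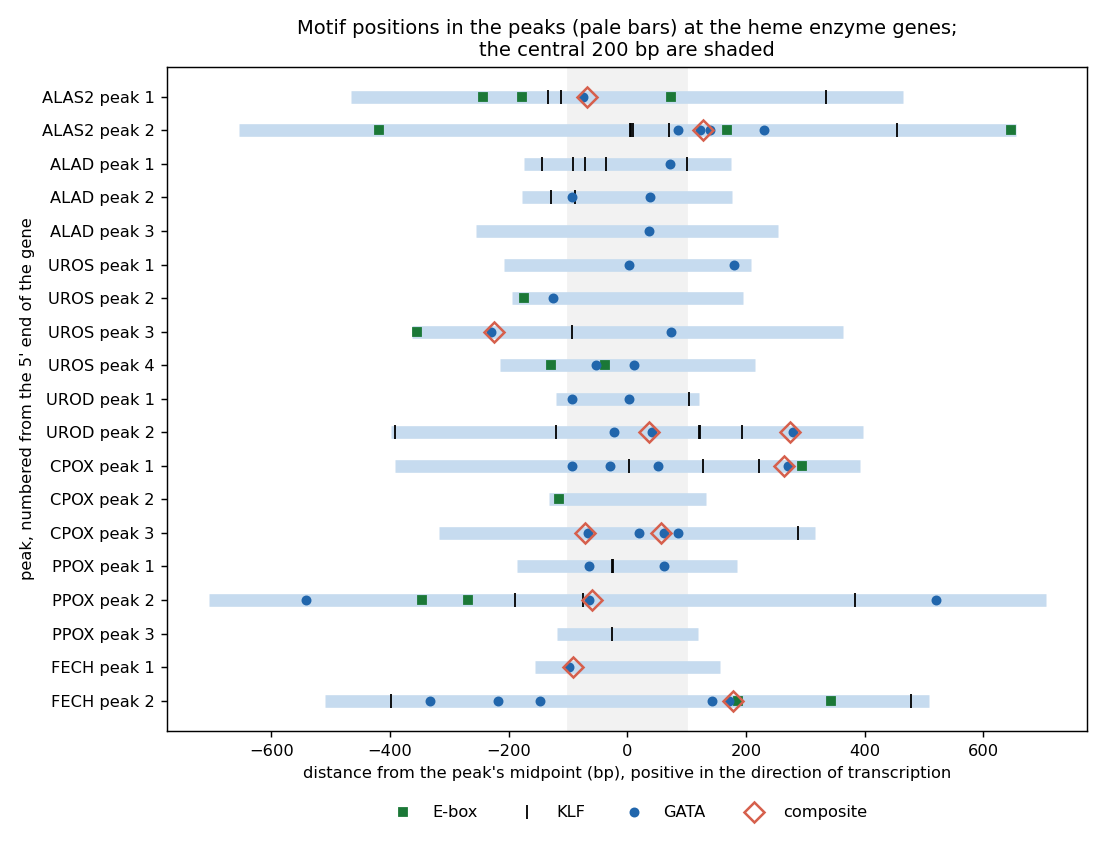
Motifs in each of the 19 peaks (rows, pale bars to scale) by distance from the midpoint of the peak (x axis, bp, positive in the direction of transcription), with GATA as circles, composites as open diamonds, E-boxes as squares, KLF as vertical ticks and the central 200 bp shaded. Circles are present in 17 of 19 rows, diamonds in 9, and the diamonds lie between 37 and 274 bp from the midpoint.

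Motifs of other factors were counted in the same windows. An E-box was in the centre of 2 of 19 (10.5%, 2.94 to 31.4%), ALAS2 peak 1 and UROS peak 4, against 33.8% of all peaks, which lay above the interval. Over the whole peak it was in 9 of 19 (47.4%, 27.3 to 68.3%), against 60.0%, inside the interval. A RUNX motif (TGTGGT or TGCGGT), the site of RUNX1, was in 1 (5.26%, 0.935 to 24.6%), against 20.5%, inside the interval. Over the whole peak it was in 3 (15.8%, 5.52 to 37.6%), against 43.0%, above the interval, with 0.261 per kb against 1.13. That RUNX motif, in ALAS2 peak 1, took in the end of the spacer and the first base of the AGATAA of the composite. An ETS motif was in 2 (10.5%) and an AP-1 motif in 2 (10.5%), against 11.9% of all peaks for either. Both AP-1 motifs were in UROS peaks, at 13 and 5 bp from the midpoint. A CEBP motif (TTGCNNAA), the site of the myeloid C/EBP factors, was in 1 (5.26%), UROS peak 3, against 7.44%. The KLF motif was in 8 of 19 (42.1%, 23.1 to 63.7%), against 32.0%, inside the interval. The MARE motif, the site of NFE2 and BACH factors that contains the AP-1 motif, was in 0 of 19, which allows a share of up to 15.8% taking 3 counts as the limit (the Wilson upper limit is 16.8%), and in 1.16% of all peaks. The NRF1 motif was likewise in 0 of 19, and in 0.281% of all peaks.

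**Figure D5:**
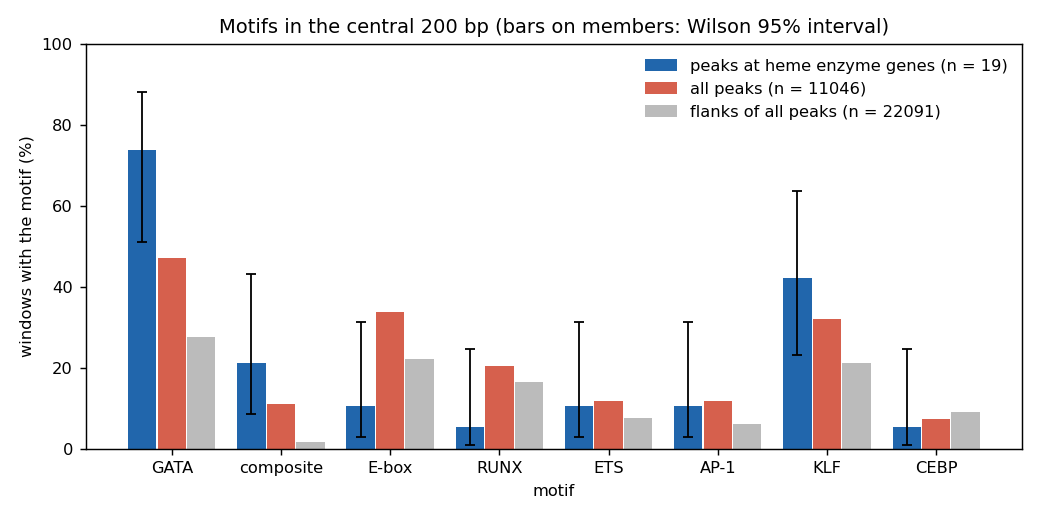
Share of windows of 200 bp with each motif (y axis, %) in the 19 peaks at heme enzyme genes, in all 11046 peaks and in 22091 flanking windows, with Wilson 95% intervals on the first. The interval lies above the value of all peaks for GATA, below it for the E-box, and includes it for the composite, ETS, AP-1, KLF and CEBP, while the RUNX interval (0.935 to 24.6%) includes 20.5%; over whole peaks, not drawn, the E-box value falls inside its interval and the RUNX value above it.

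The motifs were next followed from the sequence to the peaks. The 8 windows held 29 composites, and 11 of them lay in a peak (37.9%, 22.7 to 56.0%). Over the windows of all protein-coding genes, 1858 of 115070 did (1.61%). The windows were not much richer in composites than others, with 0.894 per 10 kb against 0.76. By gene, a peak lay over 2 of 2 at ALAS2, 3 of 4 at CPOX, 2 of 6 at UROD, 1 of 3 at UROS, 2 of 7 at FECH, 1 of 4 at PPOX, 0 of 2 at ALAD and 0 of 1 at ALAS1. Thus FECH, with the most composites, had most of them outside peaks. For GATA motifs, 40 of 593 lay in a peak (6.75%, 4.99 to 9.06%), against 0.321%. A composite within a peak was found at 6 of 8 genes (75%, 40.9 to 92.9%), all but ALAS1 and ALAD (ALAD is added with the spacer of 9 bases), against 7.91% of genes of similar length. A gene without a peak cannot have one, so this gap includes the difference in genes with a peak. Among genes with a peak, a composite was in one at 6 of 7 heme enzyme genes and at 771 of 2271 genes of similar length. Peak coverage also differed between these windows (3.54%) and those of all protein-coding genes (0.289%), and its part in the shares of motifs in peaks was not tested. The windows of all protein-coding genes were not matched for length.

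Promoters were taken from RefSeq (GRCh38.p14), from 250 bases before to 50 after the start, and 9 promoters of 7 genes were matched, without UROS. A peak covered all 300 bp of both PPOX promoters and of the CPOX promoter, and 199 and 287 bp of the ALAD promoters. None of the bases lay in a peak at ALAS1, ALAS2, UROD or FECH. The ALAD and PPOX promoters overlap within each gene, so the 9 are not independent. A GATA motif was in 4 of the 9, at ALAD, ALAS2, CPOX and PPOX, and 25% of the 35116 RefSeq promoters hold one. The composite was found in 1 of the 9, at PPOX, against 1.34% of all promoters. KLF motifs were in 8 of the 9, all but that of UROD, against 56.2%, and the NRF1 motif was in that of ALAS1, against 5.78%. An E-box was in 3 of the 9, against 29.8%, and an ETS motif in 2, against 21.8%. ALAS2 thus had a GATA motif in its promoter with no peak there, and its peak nearest the start was the one in intron 1.

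Genes that move or degrade heme were set beside those that make it. Of 12 genes of heme and porphyrin transport and enzyme assembly, 7 had a peak (58.3%, 32.0 to 80.7%), against 25.1% of all protein-coding genes. They were SLC25A38, which supplies glycine to the mitochondrion, with 2 peaks, the transporters ABCB6 with 1 and ABCB10 with 3, TMEM14C with 3, the heme exporter FLVCR1 with 3, SLC48A1 with 2 and CLPP with 1. A composite was in a peak at 3 of the 12, SLC25A38, ABCB6 and ABCB10, where 7.91% of genes in the length range of the enzyme genes had one. Genes without a peak are included in that share. Of the 9752 genes in that range, 2271 had a peak and 771 had a composite in one. Whether composites are more frequent at transport genes that have a peak was not tested. Of 10 genes of heme breakdown, binding and sensing, 3 had a peak (30%, 10.8 to 60.3%), close to the 25.1% of all protein-coding genes. None of their 6 peaks held a composite, against 22.4% of all peaks, and 6 peaks are too few to read that as a difference. The 3 genes were the biliverdin reductases BLVRA with 3 peaks and BLVRB with 1 of 2636 bp, and the heme-regulated kinase EIF2AK1 with 2. The heme oxygenases HMOX1 and HMOX2 had 0. The intervals for synthesis, transport and breakdown overlapped. A peak within 3 kb of the TSS was also found at 4 of the 12 transport and assembly genes and at 3 of the 10 others, against 6.19% of all protein-coding genes.

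A peak is not expression, so the cell type could not be checked by RNA. Among erythroid marker genes, KLF1 had 3 peaks, EPB42 had 2, HBB and HBA1 had 1 each and AHSP had 0. Of 8 neutrophil and promyelocyte genes 6 had a peak (CEBPE 8, CSF3R 3, and ELANE, PRTN3, AZU1 and LYZ 1 each), against 25.1% of all protein-coding genes, while MPO and CTSG had 0. The neighbours PRTN3 and AZU1 were counted for the same peak of 397 bp. Genes of either lineage thus carried peaks in this library, and the part of cell identity in the peaks at heme enzyme genes was not tested.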

How the data were processed

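The authors made 1 CUT&Tag library of NB4 cells with the LDB1 antibody and 1 with IgG. According to the methods and the submitters' processing notes, paired-end reads were aligned to hg38 with Bowtie2 2.4.4 and peaks were called on fragments with MACS3 3.0 under a q-value limit. Use of the IgG library as the calling control is not given in the sources used here, nor is the handling of duplicates or repeated regions, and peaks called without a control would hold more open or repeated sequence. Each deposited peak has a position (first and last base, counted from 1) and a length in bp, but neither a score nor a summit. IgG values were not used here. The depth is unknown.

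Genes, canonical transcripts and TSS were taken from GENCODE release 44, and promoter sequences from RefSeq (GRCh38.p14). The midpoint took the place of the summit. Motifs were consensus words counted on both strands, in the central 200 bp and in the whole peak, with flanks 1000 bp away as comparison. Composites that share a GATA word were counted once. The copies of the central 31 bases of a peak were counted over both strands of hg38. The same rules were applied to all protein-coding genes and all peaks. Shares carry Wilson 95% intervals. With 1 library no test was made. The code was tested on simulated data. Tables and counts were made in Python 3.11.15 with pandas 2.3.3 and numpy 2.4.6, figures in matplotlib 3.10.9, and intervals with SciPy 1.17.1.

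All 8 genes and all 19 peaks are named. Of the other gene lists, those with a peak are named, except that part of the erythroid marker list is not reported here. Neighbouring genes are named where their start is nearer to a peak, and at UROS where it is almost as near. The genes, lists and rules were chosen with earlier results of these data known. Alternatives were other gene windows, an overlap of at least 50% of the peak, the 5523 longest peaks (there is no score to set a stricter limit on), peaks with a unique centre, merged peaks, peaks nearest to the gene's own TSS, other TSS windows, other motif windows and another composite spacing.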

Additional observations from a re-analysis of the deposited data

How the results depend on the processing

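No paired analysis was possible because there were no replicates to pair. Of 40 alternative values for 6 results, 32 stayed within the 95% interval of the share or median (for peak numbers, within 1.5 times), and 8 did not. The number of genes with a peak was 7 under all 8 of its alternatives, while over all protein-coding genes the share with a peak ranged from 16.3% (the 5523 longest peaks) to 34.3% (25 kb around each gene). The numbers of genes with several peaks were not taken under these alternatives. The 19 peaks became 9 among the 5523 longest peaks and 12 when the nearest protein-coding TSS had to be that of the heme enzyme gene, both by construction of the stricter lists. The GATA share of 73.7% was 88.9% in the longest peaks, 42.1% in the central 100 bp and 89.5% over the whole peak. The composite share of 21.1% was 44.4%, 5.26% and 47.4% under the same alternatives in that order. A spacer of 7 to 9 bases gave 26.3%, against 13.7% of all peaks. Over whole peaks the shares of all peaks were 71.4% for GATA and 22.4% for the composite. No share of all peaks was set beside the longest peaks or the central 100 bp. Whether the heme enzyme gene peaks stay above all peaks there was not tested. The median length of 429 bp was 796 bp in the longest peaks and 783 bp with peaks under 1 kb apart merged, both within its wide interval (350 to 796 bp) but over 1.5 times the value. The widths differ in the bases searched, and other causes were not tested. A TSS window of 1 kb or the longest peaks left 4 genes with a peak near the TSS in place of 6, and the TSS of any transcript gave 7. Without replicates, differences between genes in peak number or length have no error between samples.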
